A study of Mus musculus with 2 samples.

Results

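Across the cell types of the mouse dorsal meninges, 10 genes of the transforming growth factor beta (TGF-beta) system were followed: the ligands Tgfb1, Tgfb2 and Tgfb3, the receptors Tgfbr1, Tgfbr2 and Tgfbr3, the latent binding proteins Ltbp1 and Ltbp3, the feedback inhibitor Smad7, and Tgfbi, an extracellular matrix gene named for its induction by the pathway. The 10 genes were chosen by symbol out of the 32285 genes of the count matrices, and all of them were detected. They were measured by single-cell RNA-seq in 1 library from 5 pooled male wild-type mice (strain C57BL/6 in the sample records, C57BL/6J in the study's methods) taken 1 week after a mild closed-skull traumatic brain injury (TBI) and in 1 library from 5 pooled mice taken 1 week after a Sham procedure. The sample records give the age as 10 weeks in one field and as 10 to 12 weeks in another. Because each group is 1 library of pooled animals, no difference between Sham and TBI has a replicate behind it and no test between them was made. Ranges in parentheses are 95% intervals that cover counting error only, and reads were collapsed to molecules by unique molecular identifiers (UMIs) before counting.

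TGF-beta is made as a precursor that is cleaved but stays bound to its own propeptide, and this latent complex is stored in the matrix through latent TGF-beta binding proteins until integrins, proteases or thrombospondin release the ligand. Free ligand binds the type 2 receptor, which recruits and phosphorylates the type 1 receptor, and the complex then phosphorylates SMAD2 and SMAD3, which enter the nucleus with SMAD4. The type 3 receptor, betaglycan, presents ligand to the others and is the receptor that TGF-beta 2 depends on most. SMAD7 is induced by the signal and shuts it down at the type 1 receptor. In connective tissue the pathway is known for driving matrix production by fibroblasts, and in immune cells for restraining activation.

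After the filters (150 to 5000 genes, at most 20% mitochondrial and at most 5% hemoglobin UMIs per barcode), 2043 Sham cells with 7866611 UMIs and 3773 TBI cells with 13940740 UMIs remained, at medians of 2764 and 2663 UMIs per cell. Clustering of both libraries together gave 28 clusters. All but 2 of them were given to 19 classes by marker genes, and the 16 classes with at least 20 cells in each library were compared. Every marker of its own list was detected in each of these 16 classes in both libraries. The libraries share 14 barcodes among the filtered cells. Fibroblast-like cells were 6.61% of the Sham cells and 20.7% of the TBI cells (135 and 781 cells). Hemoglobin and red cell markers were higher in Sham (1296 against 171 counts per 1000000 UMIs, CPM, summed over the 3 markers in macrophage-like cells), and the 10 fibroblast markers were higher in TBI in classes that are not fibroblasts (26.2 against 247 CPM in B cell-like cells). Levels below are UMIs summed over the cells of a class and scaled to CPM of all UMIs of that class. They were compared between classes for the same gene only, since 3′ counting captures different genes unequally.

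The windows before the transcription starts of 4 of the genes are shown because their levels across classes ran together or apart: Tgfb2 and Ltbp3 were highest in non-immune cells, Tgfb1 was highest in leukocytes, and Tgfbi was high in myeloid cells and fibroblasts. Each line holds the 250 bases upstream of the RefSeq start, 5′ to 3′ on the gene's strand, in GRCm38.p6. Gene positions given below are from GENCODE, in which Tgfbi starts at 56609523, inside its window. Capitals mark matches, on either strand, to the SMAD box CAGAC, the GC box GGGCGG, the AP-1 site TGANTCA and the TATA box TATAAA.
Tgfb1, plus strand, chr7:25686752-25687001: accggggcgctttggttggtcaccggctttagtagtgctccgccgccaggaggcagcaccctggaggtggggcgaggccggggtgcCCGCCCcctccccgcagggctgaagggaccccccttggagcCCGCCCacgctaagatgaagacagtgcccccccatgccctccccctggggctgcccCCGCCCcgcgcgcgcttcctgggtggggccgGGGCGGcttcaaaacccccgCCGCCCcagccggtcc
Tgfb2, minus strand, chr1:186705990-186706239: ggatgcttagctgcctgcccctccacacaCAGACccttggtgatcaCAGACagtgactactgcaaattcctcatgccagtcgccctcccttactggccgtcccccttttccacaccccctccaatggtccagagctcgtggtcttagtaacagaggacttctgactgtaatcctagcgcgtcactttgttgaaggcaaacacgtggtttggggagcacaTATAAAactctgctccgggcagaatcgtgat
Ltbp3, plus strand, chr19:5740650-5740899: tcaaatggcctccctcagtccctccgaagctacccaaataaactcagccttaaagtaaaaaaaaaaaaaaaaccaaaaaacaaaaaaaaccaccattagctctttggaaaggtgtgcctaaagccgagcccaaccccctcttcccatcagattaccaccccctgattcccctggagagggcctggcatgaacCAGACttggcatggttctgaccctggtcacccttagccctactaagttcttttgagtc
Tgfbi, plus strand, chr13:56609336-56609585: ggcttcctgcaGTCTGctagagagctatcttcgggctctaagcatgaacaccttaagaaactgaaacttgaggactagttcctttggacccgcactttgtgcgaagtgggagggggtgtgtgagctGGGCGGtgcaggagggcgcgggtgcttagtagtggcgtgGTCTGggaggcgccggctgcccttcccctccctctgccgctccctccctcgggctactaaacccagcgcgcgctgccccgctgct

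The Tgfb1 window held 5 GC boxes and no TATA box, at 75.2% G and C bases. The Tgfb2 window held a TATA box beginning 31 bases before the start and 2 SMAD boxes, at 53.6% G and C. A SMAD box was present once in the Ltbp3 window and at 2 places in the Tgfbi window, which also held 1 GC box. None of the 4 windows held the AP-1 letters. Among all 32851 windows of this length, 42.2% held the SMAD box, 32.7% the GC box, 6.75% the AP-1 site and 12.4% the TATA box, so a SMAD box is a common find in 250 bases. RefSeq windows of Tgfbr1, Tgfbr2 and Ltbp1 were searched as well, 7 genes in all. A match of letters is a description of the sequence and not a binding site.

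The 3 ligand genes had different cellular sources. Tgfb1 (ENSMUSG00000002603, chr7:25687002-25705077) reached its highest levels in leukocytes, with 3685 UMIs in 34.1% of all filtered cells. Its level was highest in non-classical monocyte-like cells, at 422 CPM (332 to 529) in Sham and 379 (296 to 479) in TBI. Immature B cell-like cells followed at 338 and 372 CPM, and B cell-like cells at 300 and 329. The intervals of these neighbours overlapped, but the first 3 places were the same in both libraries. Macrophage-like cells stood at 225 CPM (202 to 250) in Sham and 209 (194 to 225) in TBI, and dendritic-like cells at 197 and 188. Migratory dendritic-like cells were an exception among the leukocytes, with 17.2 and 24.4 CPM. Endothelial-like cells held 136 and 149 CPM, the highest level outside the immune classes. This was close to the level of T cell-like cells and above that of NK-like and migratory dendritic-like cells. Fibroblast-like cells held 39.7 (22.2 to 65.5) and 37.7 (30.2 to 46.5). Of the 15 Tgfb1 UMIs of Sham fibroblast-like cells, 10 came from 1 cell. Choroid plexus-like cells were lowest, with 1 UMI in Sham and 4 in TBI.

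Tgfb2 (ENSMUSG00000039239, chr1:186622792-186705989) was found in the classes outside the immune system, with 413 UMIs in all. Choroid plexus-like cells, the epithelium that makes cerebrospinal fluid, led at 132 CPM (95.9 to 177) in Sham and 78.7 (60.3 to 101) in TBI. Fibroblast-like cells held 74.1 and 67.1 CPM and endothelial-like cells 51.9 and 44.0. Pericyte or smooth muscle-like cells held 93.1 and 56.6 CPM, but these rest on 4 UMIs, all from 1 cell, and on 7 UMIs. The intervals of neighbours in this order overlapped in at least 1 library. In TBI the fibroblast-like level lay inside the interval of choroid plexus-like cells. There was no Tgfb2 UMI in either library in 7 classes, the dendritic-like, plasmacytoid dendritic-like, ILC2 or Th2-like (group 2 innate lymphoid or type 2 helper T), NK-like, immature B cell-like, non-classical monocyte-like and proliferating-like cells, and macrophage-like cells had 1 UMI in Sham and 2 in TBI. For the Sham macrophage-like cells a level of 1.94 CPM corresponds to 3 UMIs.

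Tgfb3 (ENSMUSG00000021253, chr12:86056745-86079041), with 233 UMIs, was the most concentrated of the ligands. Fibroblast-like cells supplied 78.6% of its UMIs in Sham and 84.8% in TBI. The level there was 87.4 CPM (60.1 to 123) in Sham and 70.1 (59.8 to 81.8) in TBI. Pericyte or smooth muscle-like cells came next with 46.6 and 24.3 CPM, from 2 and 3 UMIs. In macrophage-like cells it was 1.94 and 2.85 CPM. A Tgfb3 UMI was found in 17.0% of Sham and 14.7% of TBI fibroblast-like cells, against 0.89% and 1.11% of macrophage-like cells, at median depths of 1904, 2243, 2973 and 4424 UMIs in the same order. In cells thinned to 1000 UMIs, which left out 45 and 104 fibroblast-like and 82 and 86 macrophage-like cells, the shares were 4.44% and 5.91% against 0% and 0.31%.

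**Figure D1:**
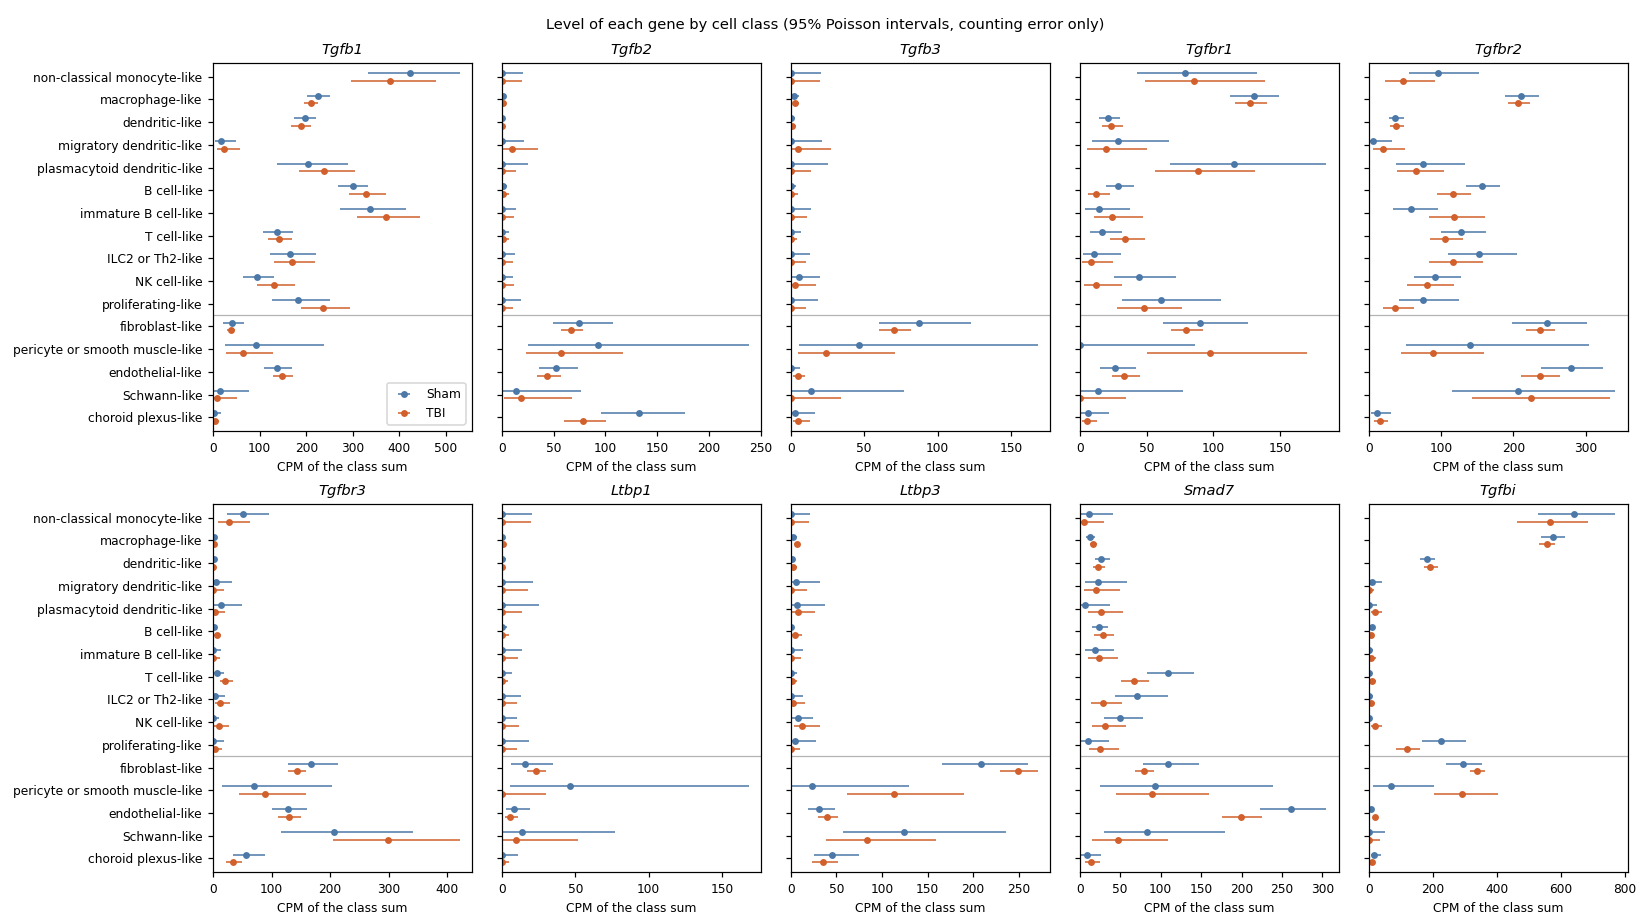
Level of each of the 10 genes in CPM of the class (horizontal axis, linear, a different range in each panel) for the 16 compared classes (vertical axis, immune classes above the grey line) in Sham (blue) and TBI (orange), where points are the level of 1 library and bars its 95% Poisson interval. The highest Tgfb1 levels lie in immune classes, with endothelial-like cells near T cell-like cells. Tgfb2 and Tgfb3 lie to the right below the line. Smad7 peaks in endothelial-like cells, Tgfbi in monocyte-like and macrophage-like cells, and the blue and orange points of most classes lie close together.

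The 2 signalling receptors were not distributed alike. Tgfbr1 (ENSMUSG00000007613, chr4:47353222-47414931), the type 1 receptor kinase, was highest in macrophage-like cells, which held 48.2% of its UMIs in Sham and 49.7% in TBI. The level there was 130 CPM (113 to 149) in Sham and 127 (116 to 140) in TBI. Plasmacytoid dendritic-like cells held 115 and 88.1 CPM, fibroblast-like cells 90.0 and 79.7 and non-classical monocyte-like cells 78.8 and 85.5, and the intervals of neighbours in this order overlapped. Pericyte or smooth muscle-like cells had no Tgfbr1 UMI in Sham but came second in TBI, at 97.1 CPM from 12 UMIs. Endothelial-like cells were far lower for this gene, at 26.0 and 33.4 CPM, and choroid plexus-like cells had 2 and 4 UMIs, or 6.00 and 5.08 CPM.

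Tgfbr2 (ENSMUSG00000032440, chr9:116084293-116175360), the type 2 receptor that binds the ligand first, was broad, with 3133 UMIs in 33.6% of all cells. Endothelial-like cells held 279 CPM (239 to 324) in Sham and 237 (211 to 264) in TBI, and fibroblast-like cells 246 (199 to 302) and 237 (217 to 258). Schwann-like cells, the glia of peripheral nerves, held 207 and 224 CPM (a log2 ratio of 0.10, or -0.03 relative to the median of all genes in that class) and macrophage-like cells 211 and 207. Neighbours among these 4 classes overlapped, but macrophage-like cells and the next class, B cell-like cells at 156 and 116 CPM, did not overlap in either library. Dendritic-like cells were low at 36.9 and 37.8 CPM.

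A UMI of both signalling receptors was found in 17.2% (13.3 to 21.7) of Sham and 21.5% (18.6 to 24.7) of TBI macrophage-like cells. The share was 14.1% (8.69 to 21.1) and 8.71% (6.82 to 10.9) in fibroblast-like cells and 1.95% and 2.25% in endothelial-like cells. Such shares follow depth, which was greatest in the TBI macrophage-like cells of these groups. In cells thinned to 1000 UMIs the shares fell to 2.35% and 2.83% in macrophage-like cells, 0% and 1.33% in fibroblast-like cells and 0.42% in endothelial-like cells of each library, so no order is read from them.

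Tgfbr3 (ENSMUSG00000029287, chr5:107106570-107289629), the co-receptor betaglycan, was highest in non-immune classes. Schwann-like cells led with 207 CPM (116 to 341) in Sham and 299 (204 to 422) in TBI, followed by fibroblast-like cells at 167 and 143 and endothelial-like cells at 128 and 130. The order of the first 6 classes was the same in both libraries. Non-classical monocyte-like cells were sixth at 50.7 and 26.7 CPM, while macrophage-like cells held 1.29 and 1.99. Among the Schwann-like cells 18.5% were predicted doublets, that is, barcodes that may hold more than 1 cell.

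Ltbp3 (ENSMUSG00000024940, chr19:5740904-5758532), a latent binding protein, was highest in fibroblast-like cells in both libraries. Fibroblast-like cells held 209 CPM (166 to 261) in Sham and 249 (229 to 271) in TBI, and they supplied 56.8% and 78.2% of its UMIs. Schwann-like cells held 124 and 84.0 CPM, from 9 UMIs in each library, and their interval overlapped that of fibroblast-like cells in at least 1 library. The 3 other non-immune classes held between 23.3 and 113 CPM. No leukocyte class among those compared reached 13 CPM. Ltbp1 (ENSMUSG00000001870, chr17:75005568-75392512) had 97 UMIs in all, the fewest of the 10 genes. Fibroblast-like cells held 15.9 CPM (5.83 to 34.6) and 22.9 (17.2 to 30.0), from 6 and 53 UMIs, and endothelial-like cells 8.12 and 5.31. In the compared leukocyte classes it was limited to 2 UMIs in TBI macrophage-like cells.

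Smad7 (ENSMUSG00000025880, on chromosome 18), the feedback inhibitor, was highest in endothelial-like cells, at 261 CPM (223 to 305) in Sham and 199 (176 to 225) in TBI. Its interval was separate from that of fibroblast-like cells, the next class, in both libraries, and it held 38.9% and 37.1% of the Smad7 UMIs. Fibroblast-like cells held 109 and 79.7 CPM, T cell-like cells 109 and 66.5, and ILC2 or Th2-like cells 70.7 and 28.3. Macrophage-like cells, highest for Tgfbr1 and next to highest for Tgfbi, were near the bottom for Smad7 at 12.3 (7.40 to 19.2) and 16.0 (12.1 to 20.7) CPM.

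Tgfbi (ENSMUSG00000035493, chr13:56609523-56639562), a secreted matrix protein that binds collagen and integrins, had the most UMIs of the 10 genes, 4811 in 24.3% of cells. It was highest in non-classical monocyte-like cells at 642 CPM (529 to 771) in Sham and 566 (464 to 685) in TBI. Macrophage-like cells held 575 (538 to 614) and 557 (532 to 582), fibroblast-like cells 294 (242 to 354) and 339 (316 to 364) and dendritic-like cells 184 (162 to 208) and 193 (172 to 215). Macrophage-like cells were separate from fibroblast-like cells, and those from dendritic-like cells, in both libraries. Lymphocyte classes stayed under 19 CPM and Schwann-like cells had no UMI.

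Some classes were not uniform in these genes. To see how the genes varied inside classes, fibroblast-like, macrophage-like and endothelial-like cells were clustered anew without the 10 genes and the pathway list. Levels of both libraries together were compared. Among 4 endothelial-like subclusters, Tgfb2 was 135 CPM (89.1 to 197) in the one led by Gkn3, Gja5 and Egfl8, of which Gja5 is known from arteries, and 1.90 CPM (0.0480 to 10.6) in the one with Kcnt2 and Pde3a among its leading genes, which also held the venous adhesion gene Selp among its first 10 genes. The pattern held in each library, at 130 and 138 CPM against 0 and 2.40. Tgfbr3 ran the other way, at 60.1 CPM (31.0 to 105) and 216 (178 to 260). Smad7 was 244, 220 and 180 CPM in 3 of the subclusters and 94.4 (51.6 to 158) in the one led by Slc38a5, Pglyrp1 and Ccdc141, which also held the glucose transporter gene Slc2a1. In TBI the last 2 of these 4 levels were close, at 122 (68.3 to 201) and 112 CPM (59.7 to 192), while in Sham they were 274 CPM and 30.8, the latter from 1 UMI in 16 cells.

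Within macrophage-like cells the type 1 receptor separated the subclusters. Tgfbr1 was 195 CPM (178 to 213) in the subcluster led by Sirpb1a, S100a4 and S100a6, which also held Ccr2, a receptor of monocyte-derived cells, and 69.5 (57.9 to 82.8) in the one led by Ahr, Lyve1 and Gprc5c. In Sham these were 172 and 96.5 CPM and in TBI 207 and 60.9. The type 2 receptor had the opposite order, with 163 CPM (147 to 180) and 264 (241 to 289). Tgfbi was 630 and 551 CPM in these subclusters and 345 (298 to 398) in the one led by Ccl8, Cela1 and Hba-a1, a subcluster with a median of 1148 UMIs per cell that held 46.6% of Sham and 29.8% of TBI macrophage-like cells.

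In fibroblast-like cells Tgfb3 was highest, at 133 CPM (102 to 171), in the subcluster led by the matrix genes Tnc and Chad and by Clec3b, and lowest, at 14.8 (4.80 to 34.5), in the one with Ptgds and Slc7a11 among its leading genes. The order was not the same in both libraries. In TBI these were the highest and the lowest, at 141 and 6.62 CPM, but in Sham they stood at 99.0 and 82.8 CPM from 8 and 3 UMIs, and another subcluster was higher at 116 CPM from 15 UMIs. Tgfbi had the reverse order in these subclusters, with 247 (203 to 297) and 543 (468 to 628) CPM. Ltbp3 was highest at 358 CPM (313 to 409) in the subcluster led by Gm16070, Mtcp1 and A830036E02Rik and lowest at 130 (95.8 to 173) in a subcluster led by Alox5ap, C1qc and Cd24a, which are genes of leukocytes. That subcluster held 23.7% of Sham and 13.1% of TBI fibroblast-like cells.

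**Figure D2:**
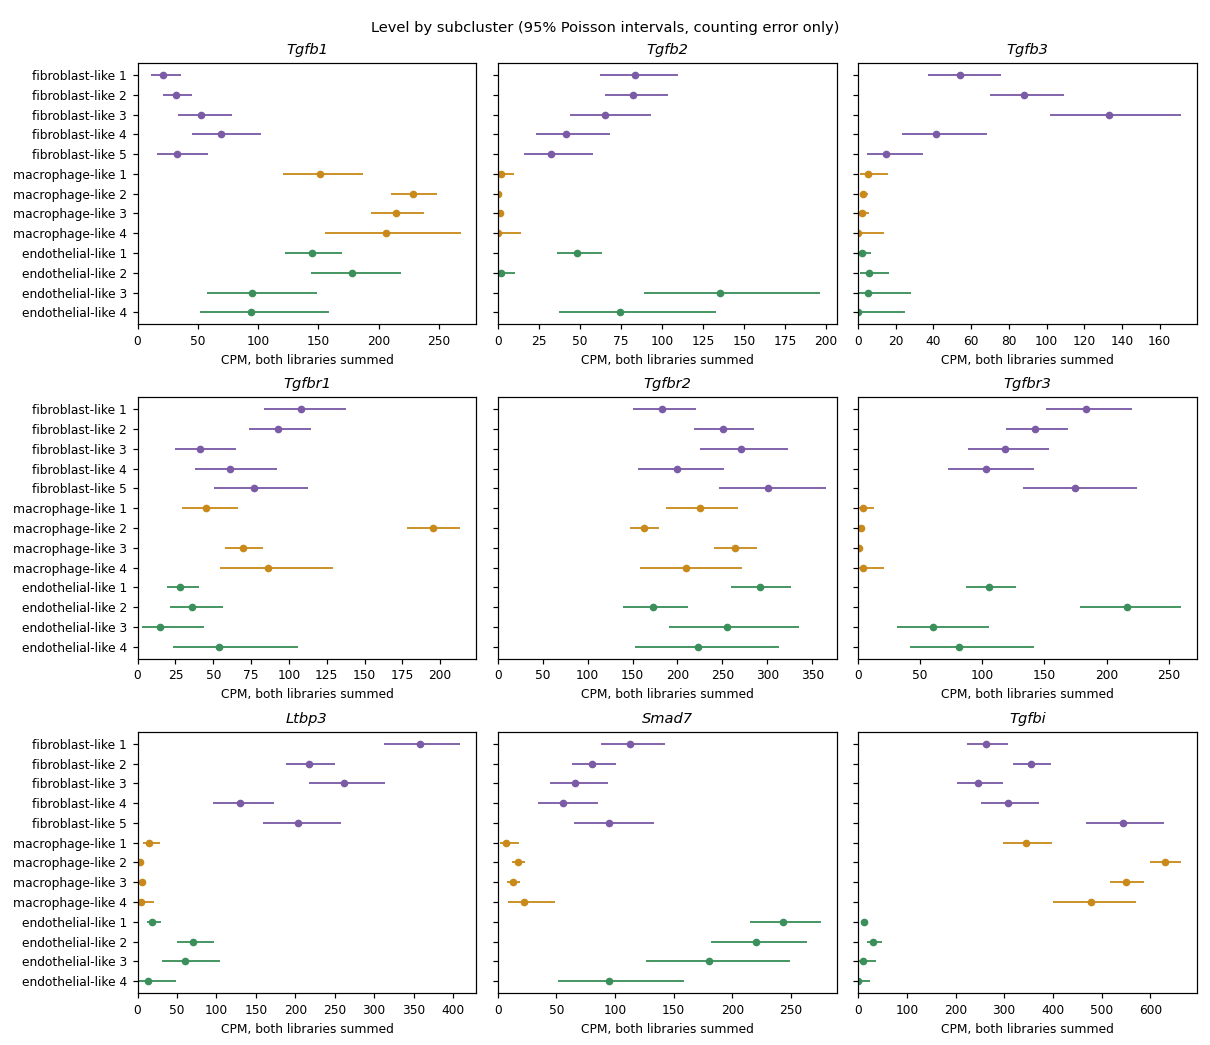
Level in CPM of 9 of the genes (horizontal axis, linear, both libraries summed) in 5 fibroblast-like (purple), 4 macrophage-like (ochre) and 4 endothelial-like (green) subclusters on the vertical axis, with 95% Poisson intervals as bars. Tgfbr1 stands out in macrophage-like subcluster 2 at 195, Tgfb2 in endothelial-like subcluster 3 at 135, Tgfb3 in fibroblast-like subcluster 3 at 133 and Tgfbr3 in endothelial-like subcluster 2 at 216.

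The genes most like each member were found by Pearson's correlation of log2(CPM + 10) over 32 points, the 16 classes in each library. These are descriptions without a test, and the points share their 2 libraries and differ in depth. For Tgfb1 they were Ly6e (r = 0.90), Ifi203 and Mndal (0.88 each). Those of Tgfb2 included Cttn (0.95) and Sulf1 (0.94), and for Tgfb3 they were Slc24a3 (0.97), Mrc2 and Cntfr. Ltbp3 was closest to Cdc42ep5 (0.95), Maged2 and Pknox2, and Tgfbr3 to Casp12 (0.92), Gulp1 and Thsd7a. Smad7 was nearest to Prrc2b (0.92), 4931406P16Rik and Abcb1a, and Tgfbi to Pid1 (0.93), Cd302 and Hpgd. The receptors Tgfbr1 (Fam102b, 0.78, Tcirg1 and Grn) and Tgfbr2 (Nr3c1, 0.87, Lgals8 and Dgcr2) had less close partners. Among the members themselves Tgfbr3 and Ltbp3 were the most alike (0.85), then Tgfb2 and Ltbp3 (0.80). Tgfb1 ran against Ltbp3 (-0.66) and Tgfb2 (-0.65). Ltbp1, under the minimum of 100 UMIs, was left out.

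Over whole libraries the largest TBI to Sham ratios belonged to Ltbp1, Ltbp3 and Tgfb3, the 3 genes for which fibroblast-like cells held the highest shares of the TBI UMIs (63.9%, 78.2% and 84.8%). Over all filtered cells, Ltbp3 was 17.7 CPM in Sham and 52.9 in TBI, a log2 ratio of 1.58 (1.32 to 1.85). Tgfb3 was 5.34 and 13.7 CPM (log2 ratio 1.35, 0.87 to 1.88) and Ltbp1 1.78 and 5.95 (1.70, 0.92 to 2.67). An unnamed cluster led by Cspg5, Cntnap2 and Edn3 held 18 of the 83 Ltbp1 UMIs of TBI and 0 of the 14 of Sham. Smaller values were found for Tgfbr3 (0.82), Tgfb2 (0.60), Tgfbi (0.37), Tgfbr1 (0.28) and Tgfbr2 (0.13). Tgfb1 was lower in TBI, at 187 against 159 CPM (-0.24, -0.33 to -0.14), and the interval of Smad7 (-0.05, -0.23 to 0.13) held 0.

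These whole-library values include the change in the mix of cells. With the share of UMIs of each class held at that of the Sham library, the log2 ratio became 0.30 for Ltbp3, -0.07 for Tgfb3, 0.28 for Ltbp1 and 0.05 for Tgfbr3. Tgfb2 went from 0.60 to -0.33 and Tgfb1 from -0.24 to 0.04. For Smad7 the value became -0.31, and for Tgfbi -0.01. At this fixed mix the 10 genes lay between -0.33 and 0.30.

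**Figure D3:**
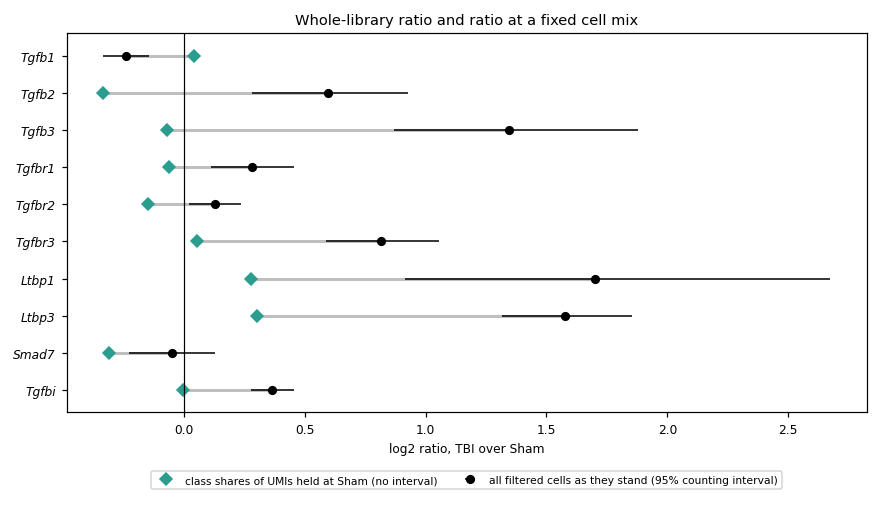
Log2 ratio of TBI over Sham (horizontal axis) for the 10 genes over all filtered cells, as they stand (black points, bars are 95% counting intervals) and with each class held at its Sham share of UMIs (green diamonds, no interval). Tgfb3, Ltbp1 and Ltbp3 lie above 1 as they stand and at -0.07, 0.28 and 0.30 at the fixed mix.

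Within classes, TBI and Sham levels of these genes mostly differed by less than 2-fold. Of the 160 pairs of a gene and a class, 65 had at least 20 UMIs in both libraries together. Of these, 5 passed 2-fold with a counting interval that left out 0, here called pairs (2 higher and 3 lower in TBI). Each class with a called pair had 1 called out of 1 to 8 members with enough UMIs. Of all genes, 2.48% were called in ILC2 or Th2-like, 2.94% in endothelial-like and 3.19% in NK-like cells. The share was 3.37% in B cell-like and 10.4% in pericyte or smooth muscle-like cells. The 5 calls therefore do not show the 10 genes to be steadier than other genes. Summed over each class, Tgfb1 was within 2-fold in all 12 classes where it had enough UMIs. It ran from -0.15 in non-classical monocyte-like to 0.47 in NK-like cells on the log2 scale. In the endothelial-like subcluster with Kcnt2 and Pde3a among its leading genes it was 1.10 (0.22 to 2.28), from 10 and 84 UMIs. Smad7 was -1.15 (-2.23 to -0.14), from 21 and 15 UMIs, in the one led by Gkn3. All other intervals of the 10 genes in the endothelial-like subclusters held 0. With all cells in, none of the 10 genes was called in fibroblast-like cells, where all 10 had enough UMIs. The median log2 ratio there was -0.14, against -0.02 over all genes, and 3.55% of all 10632 genes were called. The Tgfb1 value there (-0.11, -0.88 to 0.82) rested in part on 1 Sham cell, which held 10 of the 15 Sham UMIs. It therefore does not show an equal level in both libraries. In the subcluster led by Tnc (19 Sham cells), which held this cell, Tgfb1 was -1.76 (-3.01 to -0.40). In the one led by Alox5ap, Tgfbi was 1.18 (0.12 to 2.77), from 6 and 105 UMIs. In the one led by Ptgds (15 Sham cells), Tgfb3 was -3.55 (-7.23 to -0.52), from 3 and 2 UMIs. All other intervals of the fibroblast-like subclusters held 0. In macrophage-like cells none of 6 was called, with 2.39% of all genes called. The intervals were narrow for the genes with the most UMIs there: the log2 ratio was -0.11 (-0.29 to 0.08) for Tgfb1, -0.03 (-0.27 to 0.22) for Tgfbr1, -0.03 (-0.22 to 0.17) for Tgfbr2 and -0.05 (-0.16 to 0.07) for Tgfbi. They were wider for Smad7 (0.35, -0.40 to 1.21) and for Ltbp3 (1.14, -0.28 to 3.27), which passed 2-fold with an interval that held 0. Subclusters of this class did not all share these values. In the one led by Ahr, Tgfbr1 was -0.67 (-1.22 to -0.09) and Tgfbr2 -0.32 (-0.61 to -0.01). Tgfbi was 0.51 (0.06 to 1.00) in the one led by Ccl8. In the one led by Cxcl10, Tgfb1 was -0.88 (-1.69 to -0.05) and Tgfbi -0.74 (-1.26 to -0.20). That subcluster had 12 Sham cells, under the minimum of 20 used for classes, and 29 TBI cells. Of its Tgfb1 UMIs, 1 cell held 6 of 25 in Sham and 1 cell 9 of 30 in TBI. For Tgfb1, Tgfbr1, Tgfbr2 and Tgfbi all other intervals of these subclusters held 0.

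The called pairs rested on few UMIs. Tgfbi in pericyte or smooth muscle-like cells was 69.9 CPM in Sham and 291 in TBI, from 3 and 36 UMIs (log2 ratio 1.86, 0.40 to 4.40), the only one of the 10 genes with enough UMIs there. In this class 10.4% of all genes were called. The 36 UMIs lay in 16 of 71 cells, and 11 of them were in 1 cell. The sum of the 9 macrophage markers in the class was 116 CPM in Sham and 874 in TBI, with 5 and 0 markers at 0, and that of the 10 fibroblast markers 1490 and 3245, with 3 and 0 at 0. Their part in the Tgfbi value was not tested.

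Tgfbi in endothelial-like cells was 6.49 and 20.5 CPM, from 4 and 27 UMIs (log2 ratio 1.51, 0.14 to 3.63), 1 of 8 genes called against 2.94% of all genes. It lost its call without predicted doublets and as a mean over cells, at 1.35 in each, and in cells thinned to 1000 UMIs, at 0.58. A Tgfbi UMI was found in 4 of 308 Sham and 23 of 579 TBI endothelial-like cells (3.97% in TBI), and in 0.66% and 1.78% of T cell-like cells, at median depths of 1818, 1984, 3422 and 3221 UMIs. Thinned to 1000 UMIs, the shares were 0.42% and 0.83% in endothelial-like and 0% and 0.50% in T cell-like cells. Macrophage markers summed to 24.3 and 225 CPM in endothelial-like cells, with 4 and 0 of 9 at 0, and fibroblast markers to 205 and 684, with 3 and 0 of 10 at 0. Whether they bear on this pair was not tested.

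Tgfbr1 was lower in TBI in lymphocytes of 2 kinds. In B cell-like cells it was 28.8 CPM in Sham and 12.2 in TBI, from 33 and 10 UMIs (log2 ratio -1.19, -2.42 to -0.18), with 1 of 5 genes called against 3.37% of all genes. NK-like cells had 44.2 and 12.4 CPM from 16 and 4 UMIs (-1.70, -3.87 to -0.20), 1 of 4 genes called against 3.19%. In T cell-like cells the value was 0.97 (-0.10 to 2.29), from 9 and 29 UMIs, and none of 5 genes was called against 3.69% of all genes. In NK-like cells the call ended without the cell with the most Tgfbr1 UMIs in each library, as fewer than 20 UMIs then remained, while the log2 ratio was -1.90. The NK-like call was also lost as a mean over cells. In cells thinned to 1000 UMIs the Tgfbr1 calls of both B cell-like and NK-like cells were lost.

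Smad7 in ILC2 or Th2-like cells was 70.7 and 28.3 CPM, from 20 and 10 UMIs (-1.28, -2.58 to -0.16), 1 of 3 genes called against 2.48%. In cells thinned to 1000 UMIs, which left out 28 Sham and 22 TBI cells, the value was 0.15, and the call was also lost as a mean over cells (-0.85) and without the hemoglobin limit (-0.41). Smad7 was also below 0 in T cell-like (-0.72, -1.27 to -0.17), NK-like (-0.65, -1.96 to 0.51), fibroblast-like (-0.46, -0.94 to 0.08), endothelial-like (-0.39, -0.68 to -0.10) and dendritic-like cells (-0.22, -0.92 to 0.47), and above 0 in B cell-like (0.26, -0.62 to 1.11) and macrophage-like cells (0.35, -0.40 to 1.21).

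Pairs under 2-fold whose counting interval also left out 0 were, besides Smad7 in T cell-like and endothelial-like cells, Tgfb2 in choroid plexus-like cells (-0.75, -1.33 to -0.16), Tgfbr2 in B cell-like (-0.43, -0.80 to -0.06) and in immature B cell-like cells (0.98, 0.13 to 1.94), and Tgfbi in proliferating-like cells (-0.94, -1.58 to -0.30). In proliferating-like cells the 9 macrophage markers summed to 4179 CPM in Sham and 473 in TBI, none of them at 0, and their part in the Tgfbi value was not tested. No member was called in the other classes, where the share of all genes called was 5.29% in choroid plexus-like, 4.18% in immature B cell-like, 6.31% in proliferating-like, 2.55% in dendritic-like, 4.11% in non-classical monocyte-like, 3.18% in plasmacytoid dendritic-like and 6.06% in Schwann-like cells. In migratory dendritic-like cells (7.01% of all genes called) no member had 20 UMIs.

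**Figure D4:**
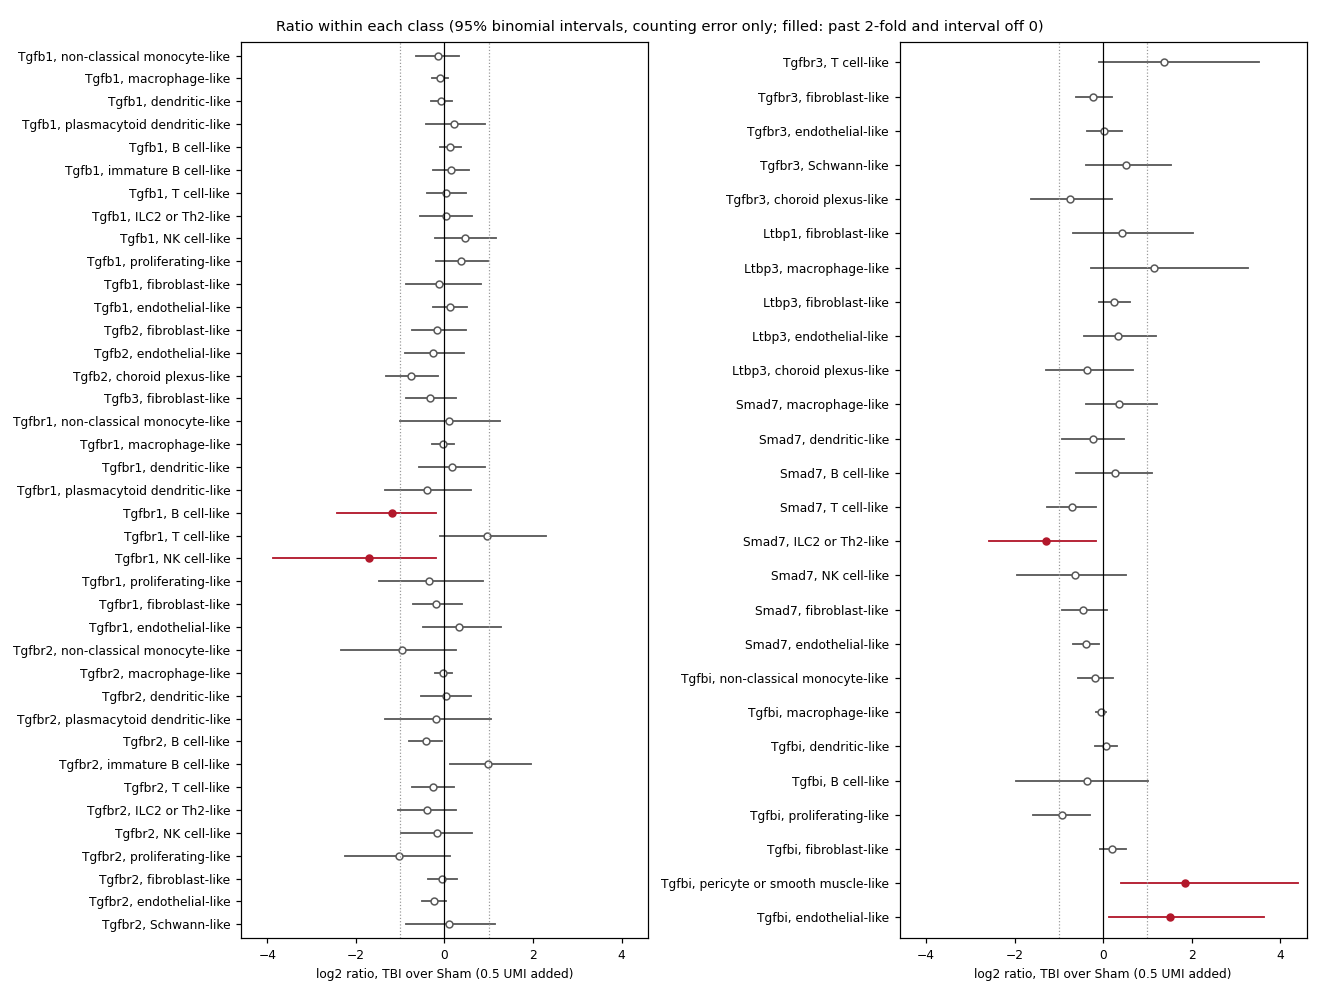
Log2 ratio of TBI over Sham, with 0.5 UMI added to each sum (horizontal axis), for the 65 pairs of a gene and a class with at least 20 UMIs (vertical axis), with 95% binomial counting intervals. The 5 called pairs are filled red, dotted lines mark 2-fold, and the other 60 are open circles. Among those, Tgfbr3 in T cell-like, Ltbp3 in macrophage-like and Tgfbr2 in proliferating-like cells pass 2-fold with intervals that hold 0.

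The rest of the pathway was taken from a list of 36 genes in the same 16 classes. Of 576 pairs 173 had enough UMIs, and 17 were called, 10 higher and 7 lower in TBI. The share of all genes called was 10.4% in pericyte or smooth muscle-like cells and ran from 2.39% to 7.01% over the other classes. None of the transducers Smad2, Smad3 and Smad4 was called in any class. Among genes of activation and storage, Thbs1, whose product thrombospondin 1 can activate latent TGF-beta, was higher in TBI macrophage-like cells, at 4.53 and 19.7 CPM from 7 and 69 UMIs (log2 ratio 2.03, 1.00 to 3.49). Its highest class was fibroblast-like cells. Ltbp4 was higher in Schwann-like cells (1.37, 0.29 to 2.77), or 1.24 relative to the median of all genes there, which lay at 0.13, and Itgav, an integrin subunit of latent TGF-beta receptors, lower in non-classical monocyte-like cells (-1.41, -2.85 to -0.24). The macrophage markers in the latter cells summed to 2483 CPM in Sham and 1079 in TBI, with 2 and 1 of 9 at 0, and their part was not tested. Nrros, which tethers latent TGF-beta 1 on myeloid cells, was 238 and 296 CPM in macrophage-like cells (0.31, 0.14 to 0.49). Of the further receptors, Acvrl1, an endothelial type 1 receptor of the superfamily, was lower in pericyte or smooth muscle-like cells (-2.03, -3.46 to -0.72). The 10 endothelial markers in these cells summed to 2422 CPM in Sham and 566 in TBI, with 2 and 1 at 0, and their part was not tested. The Acvrl1 call was lost without the cell with the most UMIs in each library (-1.02) and as a mean over cells (-0.10). Of the further feedback genes, the corepressor Tgif1 was higher in endothelial-like cells (1.12, 0.07 to 2.50), 1 of 2 called genes of the list there. The calls of Ltbp4, Itgav and Tgif1 were lost in cells thinned to 1000 UMIs, at a minimum of 50 UMIs and at 3-fold. That of Ltbp4 was also lost as a mean over cells, and that of Thbs1 only in thinned cells.

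Pathway-responsive genes gave 12 of the 17 called pairs, in both directions. In fibroblast-like cells the matrix gene Tnc, encoding tenascin C, was 5.29 CPM in Sham and 30.7 in TBI, from 2 and 71 UMIs (log2 ratio 2.23, 0.63 to 5.61), and stayed called in all 18 alternative settings. In the same cells Acta2, the actin of contractile cells, was lower in TBI, at 339 and 29.4 CPM (-3.52, -3.97 to -3.09), and so were the matrix gene Postn (151 and 24.3 CPM) and the protease inhibitor gene Timp1 (437 and 139 CPM). These 3 rested on 1 cell in part: without the cell with the most UMIs in each library Acta2 and Timp1 were no longer called, and Postn became 1.57. The pericyte markers in fibroblast-like cells summed to 381 and 339 CPM. The fibroblast-like cells thus had 4 called genes of 32 with enough UMIs, against 3.55% of all genes, at a median of -0.19 for the list.

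In macrophage-like cells 3 responsive genes of mural cells and fibroblasts were higher in TBI, Acta2 (3.74, 1.76 to 9.64, from 1 and 45 UMIs), Col3a1 (1.27, 0.10 to 2.90) and Tagln (1.18, 0.0037 to 2.82). With Thbs1 that made 4 called genes of 22, against 2.39% of all genes. Tagln kept its call in 9 of 18 alternative settings and was 0.62 as a mean over cells. Col3a1 lost its call without predicted doublets (1.18) and without the subcluster led by Ccl8, Cela1 and Hba-a1 (0.55). The fibroblast markers in macrophage-like cells summed to 206 and 367 CPM and the pericyte markers to 7.11 and 9.97, and their part in these values was not tested. Fn1 was lower in dendritic-like cells (-1.64, -2.54 to -0.86), where 2.55% of all genes were called. The cell cycle inhibitor gene Cdkn1a was lower in migratory dendritic-like cells (-1.06, -1.61 to -0.54) and higher in B cell-like cells (2.07, 0.65 to 3.97), against 7.01% and 3.37% of all genes. All of these calls were lost in cells thinned to 1000 UMIs. The Fn1 call was also lost as a mean over cells. That of Cdkn1a in B cell-like cells was also lost without predicted doublets and without the cell with the most UMIs in each library. Ccn2 was higher in pericyte or smooth muscle-like cells (1.71, 0.40 to 3.81), and Col3a1 in endothelial-like cells (1.22, 0.04 to 2.87), against 10.4% and 2.94% of all genes. Both calls were lost as a mean over cells. That of Ccn2 was also lost without predicted doublets, and that of Col3a1 in thinned cells. Of these genes Ccn2 in fibroblast-like cells stood at 138 and 185 CPM (0.41, 0.01 to 0.87), under 2-fold.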

How the data were processed

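The authors sorted live single cells, made 10x Genomics 3′ libraries and deposited raw UMI counts per gene and barcode, mapped to mm10 with Cell Ranger (2.1.1 in the submitters' processing notes, 3.1.0 in the matrix headers and a further version in the study's methods). The counts as deposited had no further filter or normalization. Here barcodes with 150 to 5000 genes, at most 20% mitochondrial and at most 5% hemoglobin UMIs were kept, and both libraries were clustered together in scanpy 1.11.5 with leidenalg 0.10.2 (2000 variable genes without the 10 genes and the pathway list, 20 components, 20 neighbours, resolution 0.8, seed 1). No batch correction was made.

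A cluster was named for the class with the largest share of its markers at 2-fold or more over other cells and in at least 10% of its cells, with at least 3 such markers that made up at least 50% of its list. It stayed unnamed where its leading 10 genes held more markers of another class, or held none of its own at a low depth. That naming rule was set after the clusters had been seen, and the names carry -like for this reason. Predicted doublets (33 Sham and 114 TBI cells) were left in and removed in an alternative.

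UMIs were summed per class and library. Levels have exact Poisson intervals, shares and ratios exact binomial ones, all at 95%, and ratios had 0.5 UMI added. A pair was called at 2-fold or more with an interval that left out 0, from at least 20 UMIs in both libraries together. The precision follows from the class totals: 3 UMIs are 1.94 and 0.85 CPM in macrophage-like and 7.94 and 1.30 CPM in fibroblast-like cells of Sham and TBI. The ratio step was tested on simulated class sums drawn with counting error only. That test says nothing about spread between cells or animals. Gene positions are from GENCODE vM21 and promoters from RefSeq, both on GRCm38. The 10 genes, the lists and the markers were chosen with earlier results of these data known. Named genes were the 10, the pathway list, the 3 genes most like each and the leading 3 genes of a subcluster, and a few more of a subcluster's first 10 genes were named after their values were seen. A few genes that the rule takes in are not reported here. Alternatives were other resolutions, scalings, depth, doublets, minimums and folds.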

Additional observations from a re-analysis of the deposited data

Results flagged for a closer look

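UMIs of the 10 genes were also present in cells and barcodes that entered no comparison. An unnamed cluster of 47 Sham and 103 TBI cells led by F630028O10Rik, with a median of 886 UMIs per cell, held 188 of them. Its Tgfbr1 level was 309 CPM (183 to 488) in Sham and 428 (316 to 565) in TBI, above the interval of macrophage-like cells in both libraries, and Tgfbi was 189 and 253 CPM. It had 4 of 9 macrophage markers, under the 50% needed for a name.

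A second unnamed cluster, of 9 Sham and 47 TBI cells led by Cspg5, Cntnap2 and Edn3, held 63 UMIs. Its 18 Ltbp1 UMIs, all in TBI, gave 198 CPM (117 to 313), against 22.9 (17.2 to 30.0) in TBI fibroblast-like cells. Ltbp3 was 165 CPM (92.4 to 272) and Tgfb2 110 (52.8 to 202) in the same TBI cells, and no Tgfb1 or Tgfbi UMI was found.

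Barcodes over the hemoglobin limit, 289 in Sham and 174 in TBI, held 139 UMIs of the 10 genes. The highest levels there were those of Tgfb1, at 25.0 and 37.7 CPM, and of Tgfbi, at 15.9 and 41.7.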

How the results depend on the processing

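With the cell with the most UMIs left out of each library, the count of 5 called pairs became 9, of which 5 were higher and 4 lower in TBI. It became 1 in cells thinned to 1000 UMIs, 0 at a minimum of 50 UMIs, 9 at 1.5-fold and 2 at 3-fold. In the other settings it was 4 to 6. The 1 call in thinned cells was not among the 5. Pericyte or smooth muscle-like cells were not compared there, with 13 Sham cells left, and the other called pairs lost their call. For the pathway list the 17 pairs became 3 when thinned, 7 at a minimum of 50 UMIs and 10 at 3-fold. No called member kept its call in every setting. Among called values the sign changed for Smad7 in ILC2 or Th2-like cells when thinned (0.15), for Postn in fibroblast-like cells as a mean over cells (0.46) and without the top cell (1.57), and for Tgfb3 over all filtered cells at the class mix held at Sham (log2 ratio -0.068). Values over all filtered cells that were under 2-fold also changed sign at that mix for Tgfb1 (0.04), Tgfb2 (-0.33), Tgfbr1 (-0.06), Tgfbr2 (-0.15) and Tgfbi (-0.01), and for Smad7 without the hemoglobin limit (0.06). Causes were not tested. Centring on the median ratio of all genes shifted 1 of 16 classes by over 0.1 (Schwann-like, 0.13) and changed the sign of 1 of 65 pairs, Tgfbr2 there (0.10 to -0.03), which was not called. Leaving out the subclusters led by macrophage or hemoglobin genes, and holding clusters at their Sham shares, were chosen after seeing the data and left the count at 5, while the pathway count became 15 to 18 and Col3a1 and Tagln in macrophage-like and Col3a1 in endothelial-like cells each lost their call in at least 1 of these settings. No paired analysis was possible because each group is 1 library, so no library could be left out either.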

Other observations

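The 3 classes below had fewer than 20 cells in the Sham library and entered no comparison. Neutrophil-like cells held Tgfbi at 238 CPM in Sham and 119 in TBI, from 11 UMIs in each, and no UMI of Tgfb2, Tgfb3, Tgfbr2, Tgfbr3, Ltbp1 or Ltbp3. Gamma-delta or Th17-like cells held Tgfb1 at 42.8 and 139 CPM, from 2 and 14 UMIs, and Tgfbr2 at 85.6 and 99.5 CPM, from 4 and 10. Pineal gland-like cells held 13 UMIs of the 10 genes, all in TBI.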
